A study of Mus musculus with 474 samples.

Results

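The peroxisome proliferator-activated receptors (PPARs) and the genes through which muscle turns from glucose to fatty acids were followed in the skeletal muscle of Diversity Outbred mice. The 9 genes were chosen by name: the receptors Ppara and Ppard, Pdk4, Ucp3, Angptl4, Cpt1b, Cpt1a, Lpl and Cd36. They are 9 of 20612 genes in the expression tables, and all 9 passed the filter on low counts that kept 18823 genes. The Diversity Outbred stock mixes the genomes of several inbred strains by random mating, and each animal is genetically unique. All animals ate a high-fat, high-sugar diet from a young age until harvest as adults, and no animal on another diet was included, so the data hold no comparison of diets and no fasted or PPAR agonist-treated group. Each animal gave 1 RNA-seq library, labelled female or male, and each label carries the number 17, 18, 19, 21 or 23, which was read as the outbred generation. The study's methods do not name all of these numbers, so that reading is an assumption. The groups of females held 48, 45, 49, 46 and 47 animals in this order of generations and those of males 46, 48, 50, 47 and 48. An SD below is over all animals of the sex or generation named. Harvest date, time of day and time since the last meal are not in the labels.

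PPARs are nuclear receptors that bind fatty acids and, paired with a retinoid X receptor, activate genes of fat burning. In muscle this programme is known for its response to fasting, exercise and dietary fat. Pdk4 phosphorylates and shuts off pyruvate dehydrogenase, which keeps pyruvate out of the citric acid cycle, while the Cpt1 enzymes admit long-chain fatty acids to the mitochondrion.

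The total count per library ran from 35.9 to 165.7 M (mega) read ends, with a median of 79.3 M. Levels are given as CPM, a gene's count divided by the library's total in M after scaling by trimmed means (TMM). Muscle markers were abundant in every library, with Ckm at 6809 CPM or more and Acta1 at 11593 CPM or more. Adipoq, a marker of fat cells, ran from 1.13 to 94.6 CPM. In 5 libraries, 3 labelled female and 2 labelled male, sex-linked RNAs departed from the pattern of the label, though none had the pattern of the opposite sex. Of these, 3 had almost no Xist and no Ddx3y, 1 female had Xist at 122.3 CPM with a trace of Ddx3y (0.133 CPM), and 1 male had Ddx3y at 93.7 CPM with Xist at 13.4 CPM. Without these libraries 5 of the 9 genes again passed for sex, 4 for generation, 0 for the interaction and 4 for library block. Of all genes 54.7%, 7.21%, 0.515% and 46.99% passed in the same order, so the sex and block shares were near the background.

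In GRCm38 coordinates, Pdk4 lies on chromosome 6 at 5483351-5496309 on the minus strand, and Ucp3, a mitochondrial carrier linked to fatty acid handling, on chromosome 7 at 100472990-100486432 on the plus strand. The others are Angptl4 on chromosome 17 at 33773750-33781830 (minus), Cpt1b on chromosome 15 at 89416405-89425863 (minus), Cpt1a on chromosome 19 at 3322334-3385733 (plus), Ppard on chromosome 17 at 28232700-28301474 (plus), Ppara on chromosome 15 at 85734983-85802819 (plus), Lpl on chromosome 8 at 68880491-68907448 (plus) and Cd36 on chromosome 5 at 17781690-17888801 (minus). Ucp3 overlaps the antisense gene Gm10603, and strand use in the counting is not stated. Cpt1b overlaps Gm44502 on its own strand. The counts of Ucp3 and Cpt1b may therefore hold reads of these genes.

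RefSeq promoter windows (GRCm38.p6, 250 bases before to 50 after the gene's start) were found for 6 of the 9 genes, namely Pdk4, Ucp3, Cpt1a, Cd36, Ppara and Ppard. The 250 bases before the start are shown for the pair of genes that moved together most closely among the animals, Pdk4 and Ucp3, and for the other windows that hold the letters AGGTCA, the core of a PPAR element. Capitals mark AGGTCA on either strand, or AGGTCANAGGTCA with at most 2 letters changed. The Pdk4 stretch is chr6:5496279-5496528 (minus strand), that of Ucp3 chr7:100472741-100472990 (plus), that of Cpt1a chr19:3323051-3323300 (plus) and that of Cd36 chr5:17835897-17836146 (minus).
Pdk4: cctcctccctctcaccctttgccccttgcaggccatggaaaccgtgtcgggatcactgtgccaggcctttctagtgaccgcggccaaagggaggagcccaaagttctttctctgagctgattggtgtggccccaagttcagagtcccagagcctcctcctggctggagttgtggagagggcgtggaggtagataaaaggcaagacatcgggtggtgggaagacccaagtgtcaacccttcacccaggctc
Ucp3: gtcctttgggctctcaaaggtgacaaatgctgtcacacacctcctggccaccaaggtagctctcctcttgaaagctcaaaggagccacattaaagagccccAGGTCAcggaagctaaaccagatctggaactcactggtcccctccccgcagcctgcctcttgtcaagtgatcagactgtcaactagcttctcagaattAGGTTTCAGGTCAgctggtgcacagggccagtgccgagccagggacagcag
Cpt1a: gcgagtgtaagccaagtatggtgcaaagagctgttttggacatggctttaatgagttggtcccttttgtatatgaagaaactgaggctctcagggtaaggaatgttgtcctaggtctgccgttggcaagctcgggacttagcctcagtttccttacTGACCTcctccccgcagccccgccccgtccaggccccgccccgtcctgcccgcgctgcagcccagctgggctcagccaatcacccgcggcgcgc
Cd36: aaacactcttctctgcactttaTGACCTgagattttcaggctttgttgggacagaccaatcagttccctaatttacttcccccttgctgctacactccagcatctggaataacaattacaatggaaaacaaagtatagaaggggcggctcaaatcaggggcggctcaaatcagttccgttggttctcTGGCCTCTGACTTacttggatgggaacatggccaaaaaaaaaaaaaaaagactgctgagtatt

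AGGTCA stood 2 times in the Ucp3 window, and the second match lies inside the near-match AGGTTTCAGGTCA. Cpt1a and Cd36 each had 1 match, on the opposite strand. Among all 32851 promoter windows 16.3% held AGGTCA, and 3.86% held the longer motif with at most 2 letters changed, as Ucp3 and Cd36 did. The exact letters AGGTCANAGGTCA were in 0.0396% of windows and in none of the 6. TGTTTAC, a forkhead motif, was in 3.65% of windows and also in none of the 6. RefSeq's start is not the outermost start of every gene as placed above. The 250 bases shown for Cpt1a and Cd36 lie inside the coordinates given for these genes, so they stand before an internal start of a longer gene model, as does that of Ppara, and parts of the Pdk4 and Ppard windows also fall inside those genes. These matches describe the letters of short windows and say nothing of binding.

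The 9 genes covered a wide span of levels. Divided by exon length, Pdk4 was the most abundant of them with a median of 366.7 CPM per kilobase. Cd36, the fatty acid receptor of the cell surface, followed at 92.1, Cpt1b, the muscle form of the carnitine enzyme, at 84.4, Ucp3 at 65.2 and Lpl, which frees fatty acids from blood lipoproteins, at 62.7 CPM per kilobase. The receptors were far lower, with 4.69 for Ppara and 3.10 for Ppard. Angptl4, a secreted inhibitor of lipoprotein lipase, stood at 2.74 and Cpt1a, the liver form of the carnitine enzyme, at 2.21 CPM per kilobase.

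Variation among animals differed widely between the genes. Pdk4 ran from 152.4 to 4275 CPM over all animals, with a median of 1287, a 28.1-fold span. Angptl4 ran from 1.30 to 38.2 CPM, a 29.3-fold span, and Ucp3 from 72.4 to 511.6 CPM, a 7.07-fold span. Ppara covered 5.62-fold, from 7.13 to 40.1 CPM. Spans of the other 5 genes lay between 2.42-fold for Cpt1b (180.3 to 436.3 CPM) and 3.51-fold for Lpl (375.7 to 1318 CPM). Extremes were not the whole of it, since the 95th percentile exceeded the 5th by 4.69-fold for Pdk4, 5.95-fold for Angptl4 and 3.82-fold for Ucp3, but by 1.51-fold for Cpt1b. Within sex-by-generation groups the standard deviation of Pdk4 on the variance-stabilised (VST) scale, close to log2, was 0.64, larger than that of 96.9% of genes, against 0.17 for Cpt1b, larger than that of 22.1% of genes. By the same measure Angptl4 exceeded 96.7% of genes, Ucp3 95.2%, Ppara 87%, Lpl 81.1%, Cd36 78.1%, Cpt1a 66% and Ppard 48.3%. Of the 9 genes, Pdk4, Angptl4 and Ucp3 thus varied most among animals of the same sex and generation, and Cpt1b least.

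**Figure D1:**
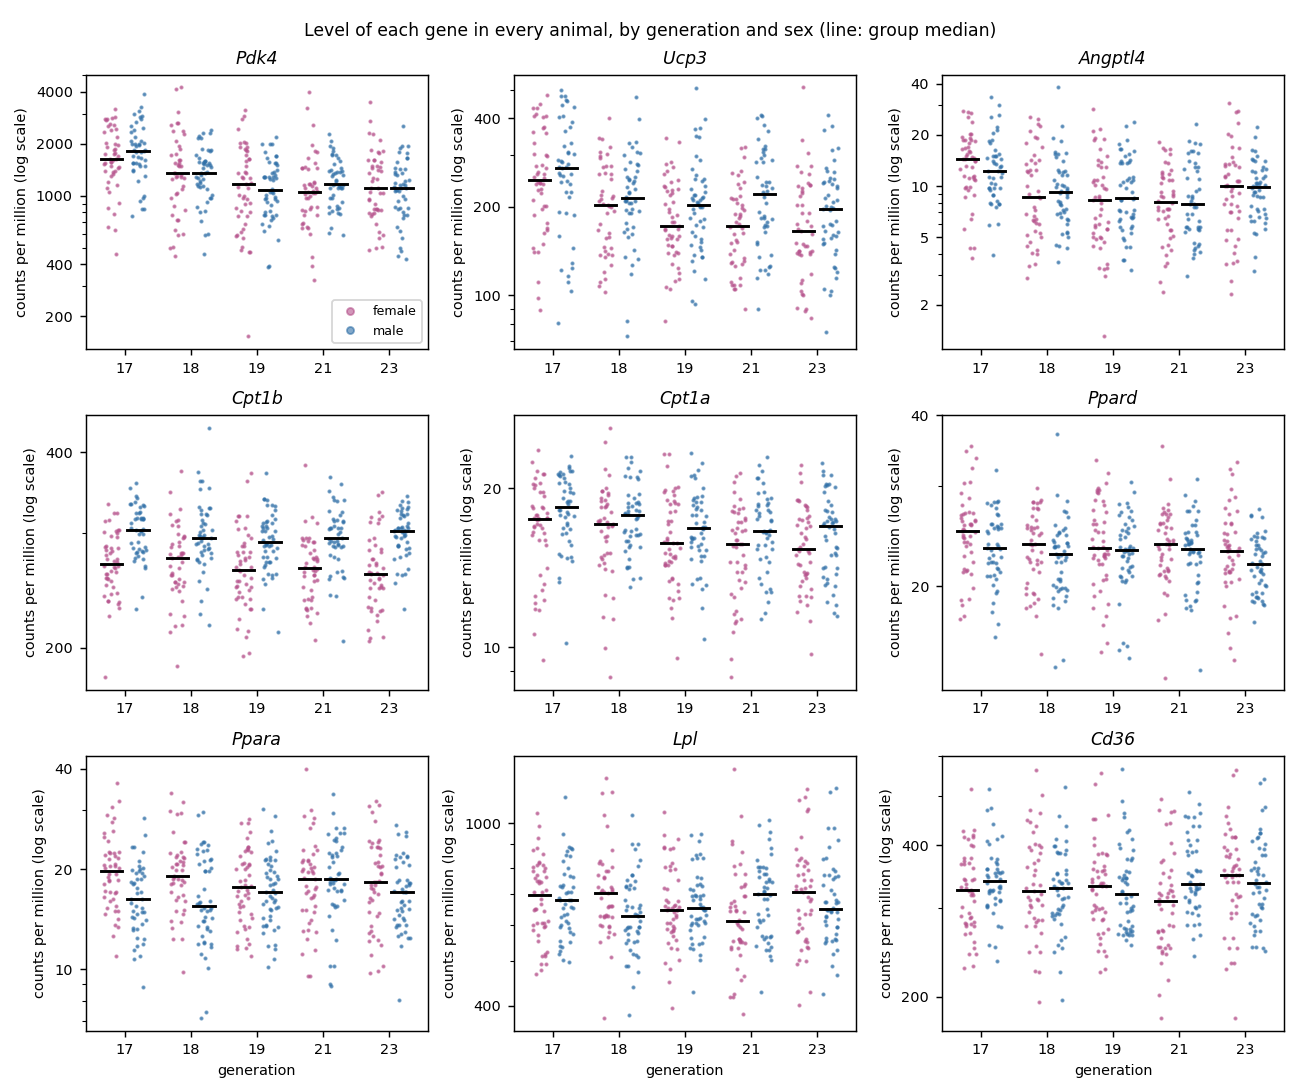
Level of each of the 9 genes in every animal, in CPM on a logarithmic axis, by generation (horizontal axis) and sex (colour), with a black line at each group's median. Pdk4, Ucp3 and Angptl4 are highest in generation 17 and spread widely within every group, while the male median of Cpt1b lies above the female median in all 5 generations.

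The first comparison asked whether males and females differed, with generation in the model. Cpt1b, Ucp3 and Cpt1a were higher in males, and Ppara and Ppard, the receptors themselves, were lower. That makes 5 of 9 genes, 3 higher and 2 lower, in a data set in which 55% of all genes differed between the sexes, 24.4% higher and 30.6% lower in males, so the share is near the background. With libraries scaled by total count alone 4 of 9 passed, against 57.4% of all genes, and the split over all genes moved from 4595 higher and 5767 lower to 3330 and 7469. All differences were small, the largest being 0.18 on the log2 scale.

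Cpt1b had the most distinct sex difference. In females it ran from 180.3 to 382.6 CPM with a median of 265.99, and in males from 205.3 to 436.3 with a median of 298.9. Ranges overlapped, and 86.6% of males lay above the female median. Its log2 difference was 0.16 (SE 0.02, edgeR adjusted p = 2.69e-20), it was higher in males in 5 of 5 generations and 5 of 5 library blocks taken alone, and it passed the threshold in each of these 10 subsets. Of all genes 24.7%, 25.6%, 23.3%, 27.6% and 27.5% passed in the generations alone, in their order, and 19.4%, 21.6%, 23.7%, 28.6% and 23% in blocks 1 to 5. Sex accounted for 18.2% of the variance of its VST values.

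Ucp3 ran from 81.4 to 511.6 CPM in females (median 190.05) and from 72.4 to 506.1 in males (median 215.6), ranges that nearly coincide. Its log2 difference was 0.18 (SE 0.05, edgeR adjusted p = 0.00101). Male levels were above female levels in all 5 generations, by 0.08 to 0.35 on the log2 scale, with 1 generation past the threshold alone. Within library blocks they were higher in 4 of 5, by up to 0.34 with 1 block past the threshold, and -0.01 in the second block. Cpt1a was at 16.2 ± 3.17 CPM (SD) in females and 17.3 ± 2.81 CPM (SD) in males, a log2 difference of 0.09 (SE 0.02, edgeR adjusted p = 0.000581). It was higher in males in all 5 generations and all 5 blocks, and passed in 0 of the generations and 2 of the blocks alone. With libraries scaled by their total count alone, that of Cpt1a was 0.05 with an edgeR adjusted p of 0.0702 and no longer passed.

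Both receptors were lower in males. Ppara was at 19.2 ± 5.39 CPM (SD) in females and 17.6 ± 4.73 CPM (SD) in males, a log2 difference of -0.13 (SE 0.04, edgeR adjusted p = 0.00103). The Ppara difference was largest in generation 17, at -0.28, and 0.03 in the other direction in generation 21, and it passed in 2 generations and 1 block alone. Ppard was at 23.9 ± 3.91 CPM (SD) in females and 22.9 ± 3.28 CPM (SD) in males, a log2 difference of -0.06 (SE 0.02, edgeR adjusted p = 0.00589). It was lower in males in all 5 generations and in 4 of 5 blocks, with 0.04 in the other direction in the first block, and passed in none of these 10 subsets alone by edgeR.

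Pdk4, Angptl4, Lpl and Cd36 did not pass the threshold. Pdk4 had a median of 1281 CPM in females and 1293 in males, with a log2 difference of -0.05 (SE 0.06, edgeR adjusted p = 0.511). Angptl4 had a log2 difference of -0.02 (SE 0.07), Lpl of -0.02 (SE 0.03) and Cd36 of 0.03 (SE 0.03), with adjusted p-values of 0.838, 0.549 and 0.318 by edgeR. In generations taken alone each of the 4 was higher in males in 2 of 5 and lower in 3, with Lpl lower at -0.17 (adjusted p = 0.0392) in generation 18 and Cd36 higher by 0.16 (adjusted p = 0.0405) in generation 21 past the threshold.

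Markers of other cell types moved with sex. Of 9 fat cell markers, 8 were lower and 1 was higher in males, with a median log2 difference of -0.55, and their summed level ran from 33.4 to 998.2 CPM in females (median 150.4) and from 30.1 to 490.96 in males (median 109.2). All 8 slow fibre markers were lower in males (median log2 difference -0.48), while 7 of 8 endothelial markers were higher and none lower. Fast fibre markers were mixed (5 of 9 higher, 2 lower), as were general muscle markers (2 of 7 higher, 3 lower), 3 of 5 erythroid markers were higher, 3 of 4 brown fat cell markers were lower and 1 higher, and none of 8 macrophage markers passed by edgeR. In bulk tissue, fewer cells of a type and less RNA per cell cannot be told apart. When the fat cell and slow fibre marker scores were added as covariates, 6 of 9 genes passed, against 45.3% of all genes. Angptl4 then differed by 0.31 (SE 0.07, edgeR adjusted p = 1.94e-05), Cd36 by 0.15 (SE 0.03, adjusted p = 6.6e-06) and Lpl by 0.11 (SE 0.03, adjusted p = 0.00305), each higher in males. Ucp3 at 0.12 (adjusted p = 0.101) and Ppara at -0.04 (adjusted p = 0.43) then missed the threshold, and Cpt1b at 0.19 did not. The part of these markers in the sex differences was not tested beyond this model.

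**Figure D2:**
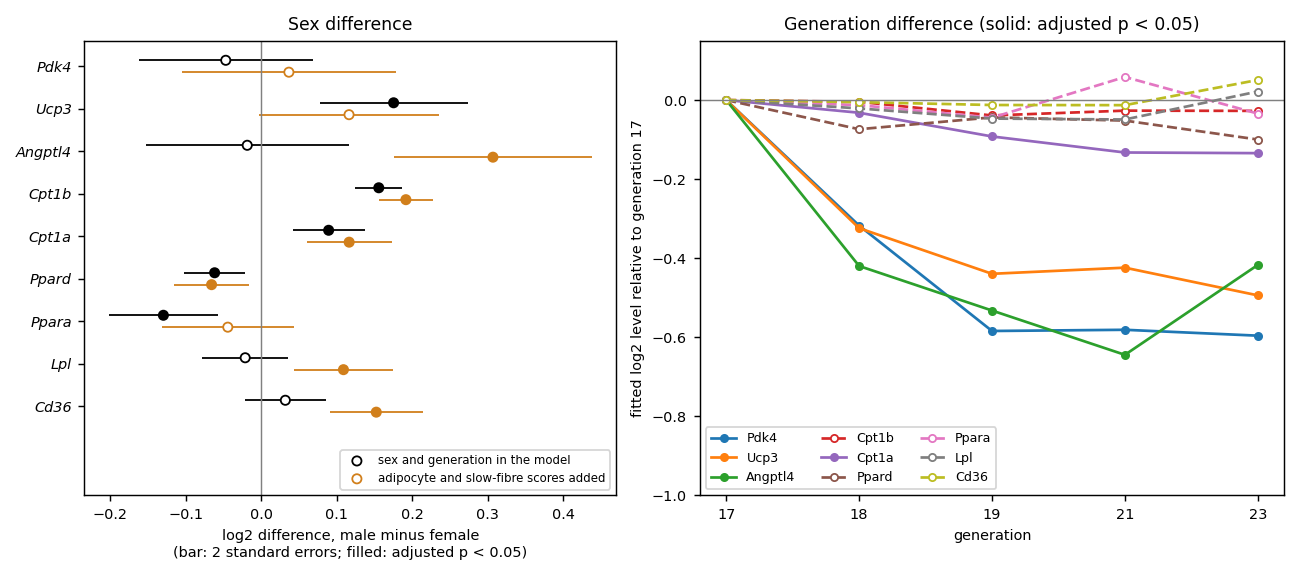
Left, log2 difference between males and females for each gene from the edgeR model with sex and generation (black) and with fat cell and slow fibre marker scores added (orange), with bars of 2 standard errors and filled points where the adjusted p was under the threshold. Right, fitted log2 level in each generation relative to generation 17, where Pdk4, Ucp3 and Angptl4 fall by 0.32 to 0.42 by generation 18 and the genes with dashed lines, which did not pass, stay close to 0.

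The second comparison asked whether the outbred generations differed, with sex in the model. Pdk4, Ucp3, Angptl4 and Cpt1a did, and each of these was highest in generation 17. The 4 of 9 genes stand against 7.56% of all genes that differed between generations, and 2.4% of all genes that did so with their highest level in generation 17. The other 5 genes, both receptors and Lpl, Cd36 and Cpt1b among them, did not pass the threshold, with ranges of 0.04 to 0.10 on the log2 scale.

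Pdk4 had medians of 1745, 1361, 1129, 1131 and 1114 CPM in generations 17, 18, 19, 21 and 23. Its mean was 1829 ± 679.3 CPM (SD, n = 94) in generation 17 and 1212 ± 539.4 CPM (SD, n = 95) in generation 23, and all ranges overlapped. The range of fitted levels was 0.60 on the log2 scale (edgeR adjusted p = 1.36e-10), larger than that of 96.4% of genes, and generation accounted for 12.5% of the variance of its VST values. Ucp3 had medians of 258.6, 209.6, 190.1, 186.6 and 174.8 CPM in the same order, a range of 0.49 (edgeR adjusted p = 3.02e-08).

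Angptl4 had medians of 13.3, 9.02, 8.44, 7.87 and 9.95 CPM and a range of 0.64 (edgeR adjusted p = 1.91e-06). Of the 9 fat cell markers, 3 differed between generations and none of these was highest in generation 17. With fat cell and slow fibre scores in the model the range of Angptl4 was 0.69. The part of fat cells in its generation difference was not tested beyond this model. Cpt1a moved least of the 4, with medians of 17.8, 17.4, 16.1, 16.5 and 16.2 CPM and a range of 0.13 (edgeR adjusted p = 0.0116). Under total count scaling its range was 0.12 with an adjusted p of 0.12, so that 3 of the 4 genes remained, against 8.88% of all genes.

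The calls rested on generation 17. Without that generation none of the 9 genes passed the edgeR test, against 1.45% of all genes, and 2 of the 9, Pdk4 and Cpt1a, had an unadjusted p under 0.05, as did 11.7% of all genes. The range of Pdk4 then went from 0.60 to 0.28 (unadjusted p = 0.00535, adjusted p = 0.151), that of Ucp3 from 0.49 to 0.17 and that of Angptl4 from 0.64 to 0.23. The range of Cpt1a went only from 0.13 to 0.10 (unadjusted p = 0.0205, adjusted p = 0.295), so its call was lost with little change in size. Leaving out generation 18, 19, 21 or 23 in turn left the count at 4 each time, against 8.4%, 7.36%, 7.04% and 5.35% of all genes. In a comparison of neighbouring generations added after the data were seen, Pdk4, Ucp3 and Angptl4 fell from generation 17 to 18, by 0.32 (SE 0.09, adjusted p = 0.0475), 0.32 (SE 0.08, adjusted p = 0.00761) and 0.42 (SE 0.11, adjusted p = 0.015) on the log2 scale. In that step 1.33% of all genes changed and 0.579% fell. Without the 5 libraries of unusual sex-linked RNA, that of Pdk4 was -0.31 with an adjusted p of 0.0748, and 2 genes passed. Cpt1a had a difference of -0.03 (SE 0.04) from 17 to 18 and one of -0.06 (SE 0.04) from 18 to 19, neither of which passed. None of the 9 passed in the later steps from 18 to 19, 19 to 21 and 21 to 23, in which 0.691%, 0.228% and 0.266% of all genes changed. Pdk4 nevertheless had a log2 difference of -0.27 (SE 0.09, unadjusted p = 0.00338, edgeR adjusted p = 0.216) from 18 to 19, close in size to that from 17 to 18. Angptl4 had one of 0.23 (SE 0.11, unadjusted p = 0.0339, adjusted p = 0.486) from 21 to 23.

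Direction was steadier than the tests in subsets. Taken within each of the 5 library blocks, generation 17 had the highest mean of Pdk4 in 5 blocks, of Angptl4 in 5, of Ucp3 in 4 and of Cpt1a in 3. Generation 17 lay above the mean of the other generations in all 5 blocks for each of these genes, by 0.28 to 0.71 for Pdk4, 0.38 to 0.68 for Angptl4 and 0.05 to 0.58 for Ucp3 on the log2 CPM scale. Tested within 1 block at a time, Pdk4 (adjusted p = 0.0288) and Ucp3 (adjusted p = 0.0048) passed in the second block, Cpt1a (adjusted p = 0.0352) in the fifth, and none of the 9 passed in the other 3 by edgeR. Few genes of any kind passed in such small subsets, 0.463% of all genes in the second block, 0.294% in the fifth, and 0.415%, 0.967% and 0.319% in blocks 1, 3 and 4. In each sex alone Pdk4, Ucp3 and Angptl4 passed and Cpt1a did not, against 2.85% of all genes in females and 2.81% in males. Whether generation 17 differed from the others in harvest date, fasting or handling cannot be told apart from generation with these labels.

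The third comparison asked whether the sex difference varied among generations. None of the 9 genes passed the interaction test of edgeR, against 0.531% of all genes. At an unadjusted p under 0.05 there were 2, Lpl (p = 0.0416, adjusted p = 0.798) and Ppara (p = 0.0422, adjusted p = 0.799), a level that 5.97% of all genes reached, so nothing is read from these 2 values. Limma on the VST values likewise had none of the 9 past the threshold and 2 at an unadjusted p under 0.05, against 4.62% of all genes. The fitted sex differences of Ppara spanned 0.31 on the log2 scale over the generations and those of Cpt1b 0.05.

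Library blocks, stretches of up to 96 consecutive library numbers whose meaning the labels do not give, also differed. Ppard (range 0.21, edgeR adjusted p = 1.37e-08), Cpt1b (0.12, adjusted p = 4.35e-05), Lpl (0.17, adjusted p = 0.00114) and Cd36 (0.16, adjusted p = 0.0049) passed, 4 of 9 genes against 47.4% of all genes, so the share is near the background. With libraries scaled by total count alone Cd36 had a range of 0.12 (edgeR adjusted p = 0.109) and missed the threshold, which left 3 of 9 genes against 47.6% of all genes. Ppard was lowest in the first block, with a median of 21.9 CPM, and highest in the second, with 25.2 CPM. The genes that differed between generations did not pass between blocks, Pdk4 having a block range of 0.15 (adjusted p = 0.388) and Ucp3 of 0.06 (adjusted p = 0.976). With block in the model the sex count stayed at 5, against 55.7% of all genes, and the generation count at 4, against 7.51%.

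The fourth comparison asked which of the 9 genes rose and fell together from animal to animal. VST values were centred within sex-by-generation groups, so that neither sex nor generation enters, and each p is 2-sided from 100000 permutations within groups, of which 1e-05 is the smallest possible. Of 36 pairs, 29 passed after adjustment over the pairs, 27 positive and 2 negative. Small values of r pass with this many animals: the smallest absolute r that passed was 0.10, and 39.9% of all genes, taken with each of the 9 in turn, reached it. Only 12 of the 29 pairs lay within the farthest 5% of genes by absolute r for both genes of the pair. Over all animals the median r of the 36 pairs was 0.19.

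The closest pair was Pdk4 and Ucp3 (r = 0.69, rho = 0.69, p = 1e-05, adjusted p = 2.1e-05). Ucp3 was the gene most like Pdk4 among all 18822 others, and Pdk4 was second for Ucp3, after a gene that overlaps Ucp3 on the opposite strand. Within the 5 library blocks r ran from 0.63 to 0.76, it was 0.71 in females and 0.70 in males, and it was 0.70 without the 2 farthest animals. Animals with much Pdk4 thus also had much Ucp3, in every subset examined.

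Angptl4 and Cpt1a joined this pair. Pdk4 had r = 0.57 (rho = 0.56) with Angptl4 and r = 0.51 (rho = 0.48) with Cpt1a, and Angptl4 had r = 0.53 (rho = 0.51) with Cpt1a. Angptl4 and Pdk4 were the 2 genes most like Cpt1a among all genes. All of these had p = 1e-05 by permutation and passed in each of the 5 blocks alone. Ucp3 was less close to both, with r = 0.39 for Angptl4 and 0.37 for Cpt1a. With fat cell and slow fibre scores in the model r was 0.70 for Pdk4 and Angptl4 and 0.49 for Angptl4 and Cpt1a. The part of fat cells in these relations was not tested beyond this model.

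The other close pair was the lipase and the fatty acid receptor. Lpl and Cd36 had r = 0.69 (rho = 0.66, permutation p = 1e-05), with block values of 0.62 to 0.76, and Cd36 was the gene most like Lpl among all genes. Ppara was nearest to Lpl, at r = 0.48 (rho = 0.46), and had no gene nearer. Pdk4 had r = 0.43 with Cd36 and 0.34 with Lpl, so the 2 sets were not separate.

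The receptors followed the target genes unevenly. Ppara had r = 0.32 with Cpt1b, 0.27 with Cd36 and 0.24 with Ucp3, but 0.13 with Pdk4 and 0.002 with Angptl4 (permutation p = 0.974). Ppard had r = 0.41 with Cpt1b (rho = 0.32) and 0.19 with Ppara (rho = 0.16). Both were positive in all 5 library blocks but uneven in size, with r from 0.13 to 0.61 for Cpt1b, which passed in 2 blocks alone, and from 0.12 to 0.35 for Ppara, which passed in 1. With Pdk4 it had r = -0.03 (permutation p = 0.469), with Cd36 r = -0.18 (rho = -0.18, permutation p = 0.0001) and with Cpt1a r = -0.14 (rho = -0.13, permutation p = 0.00273). The negative relation of Ppard and Cd36 did not hold in every block, with r from -0.41 to 0.08.

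Cpt1b and Cpt1a, the muscle and liver forms of the same enzyme, had r = 0.06 (rho = 0.09, permutation p = 0.175) and did not pass. Cpt1b was weakly related to Lpl (r = 0.22) and to Cd36 (r = 0.18), but in the first library block both were negative, at -0.16.

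**Figure D3:**
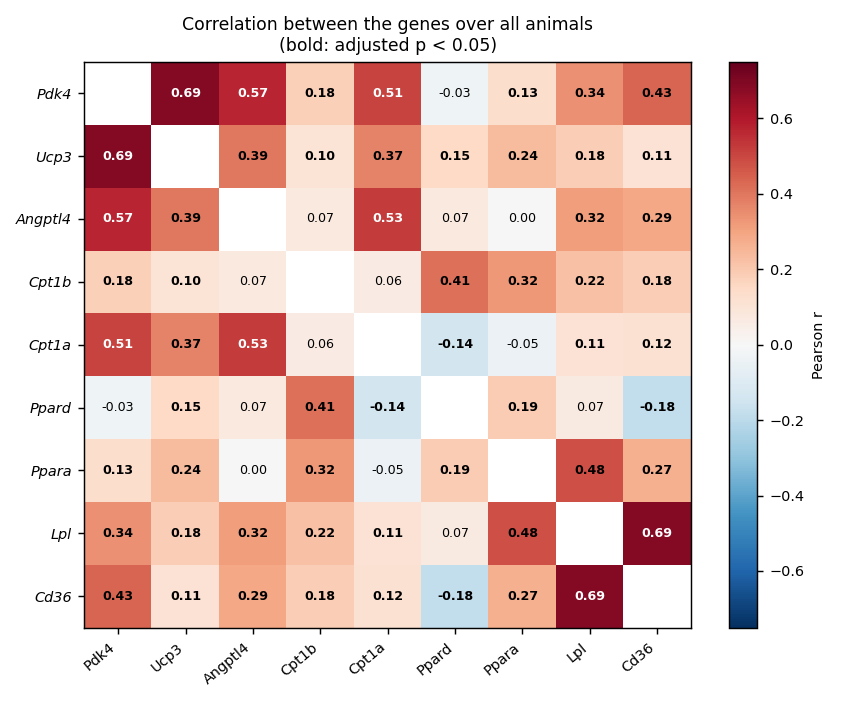
Pearson r between each pair of the 9 genes over all animals, on VST values centred within sex-by-generation groups (blue negative, red positive, bold where the adjusted p was under the threshold). Pdk4, Ucp3, Angptl4 and Cpt1a form one set with r of 0.37 to 0.69, Lpl and Cd36 another with r of 0.69, and the row of Ppard is pale or blue except at Cpt1b, where r ran from 0.13 to 0.61 within library blocks.

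**Figure D4:**
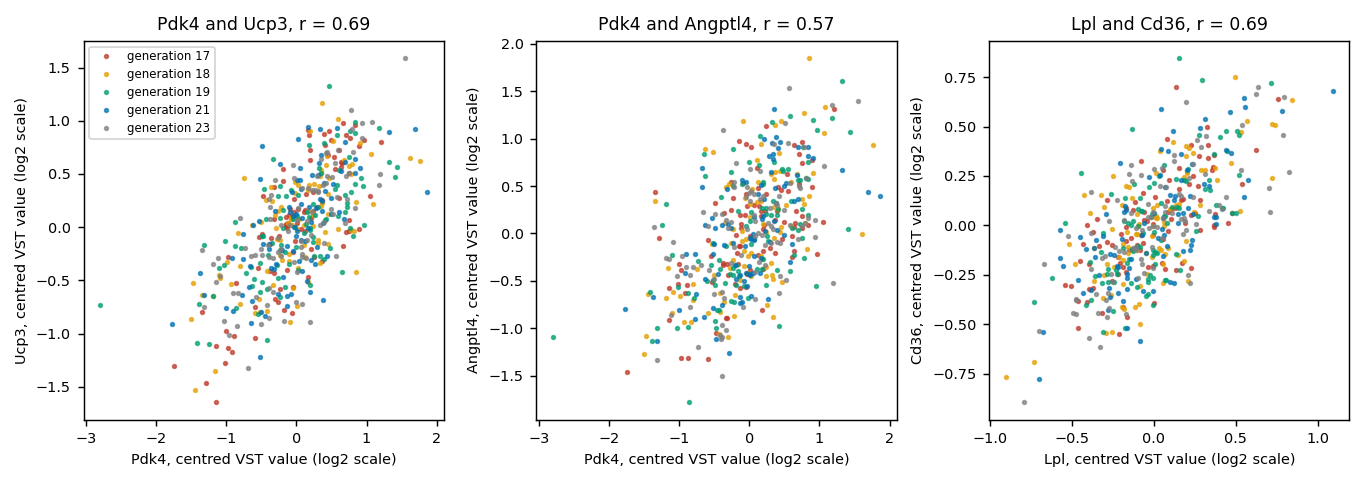
Centred VST values of the 2 genes of a pair in each animal, coloured by generation, for Pdk4 and Ucp3, Pdk4 and Angptl4, and Lpl and Cd36 (both axes on a scale close to log2). Points of all 5 generations overlap in each panel, and 1 animal at the far left of the Pdk4 panels, a female of generation 19 with 152.4 CPM, stands alone.

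Each gene was next set against the mean standardised level of 8 gene lists in the same animals, with no member of the 9 in any list. Of 72 relations 45 passed, 38 positive and 7 negative, at an absolute r of 0.10 or more, which 33.9% of all genes reached with these list scores. Cpt1b followed the 25 genes of fatty acid oxidation and PPAR targets most closely (r = 0.73, rho = 0.73), and Cd36 (r = 0.59), Lpl (r = 0.54) and Ppara (r = 0.45) did so less closely, each with permutation p = 1e-05. For Pdk4 the value was 0.35 and for Angptl4 0.30, and it was lowest for Ucp3 and Cpt1a, at 0.14 each. Markers of other cell types moved with the same genes, since the slow fibre list had r = 0.25 with Cpt1b, 0.24 with Lpl, 0.24 with Cd36 and 0.20 with Ppara (each permutation p = 1e-05), and passed with none of the other 5. The endothelial list passed with 6 genes, at r = 0.28 for Cpt1b, 0.21 for Cpt1a, 0.19 for Cd36, 0.13 for Angptl4, 0.10 for Lpl and -0.21 for Ucp3, but that of Lpl did not pass by rho (0.07, permutation p = 0.144). In the first library block those of Cd36 (-0.05) and Lpl (-0.13) were negative. With fat cell and slow fibre scores in the model, r with the oxidation list was 0.73 for Cpt1b, 0.55 for Cd36, 0.50 for Lpl and 0.43 for Ppara. The part of endothelial cells in these relations was not tested.

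A list of FoxO-responsive genes, which insulin normally restrains, was followed by Pdk4 with r = 0.51 (rho = 0.45) and Ucp3 with r = 0.48 (rho = 0.55). Ppara (r = 0.40) and Lpl (r = 0.35) also followed it, and these 4 relations passed in each of the 5 library blocks. Ppard (r = 0.32, rho = 0.27), Cpt1b (r = 0.30, rho = 0.19), Cd36 (r = 0.28, rho = 0.19) and Angptl4 (r = 0.19, rho = 0.16) passed over all animals, and Cpt1a (r = 0.05) did not. These 4 were less even over the blocks and passed in 3, 2, 3 and 1 of the 5 alone, r for Cpt1b running from 0.09 to 0.53. Ucp3 was closest to the glucocorticoid-responsive list (r = 0.56, rho = 0.54), against 0.31 for Pdk4 and for Ppara, and 0.22 for Ppard, while Angptl4 (r = -0.05) and the other 4 genes did not pass. Genes of the circadian clock output, which include Dbp and Nr1d1, ran opposite to Angptl4 (r = -0.46, rho = -0.44) and Pdk4 (r = -0.38, rho = -0.38) in all 5 library blocks. Cd36 (r = -0.26, rho = -0.24) and Lpl (r = -0.20, rho = -0.16, permutation p = 4e-05) passed in the same direction and were negative in all 5 blocks, with 3 and 2 blocks past the threshold alone. For Ucp3 that relation was -0.07 (permutation p = 0.139), and the other 4 genes did not pass either. Each of these relations with an absolute r of 0.31 or more had p = 1e-05 by permutation.

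Angptl4 was closely related to the fat cell markers, with r = 0.63 (rho = 0.59, permutation p = 1e-05) and block values of 0.54 to 0.67, and to the macrophage markers, with r = 0.41. The macrophage list also passed with Cpt1a (r = 0.23), Lpl (r = 0.14), Pdk4 (r = 0.11) and Cpt1b (r = -0.10), the last pair of which did not pass by rho. Pdk4 had r = 0.05 and Ucp3 r = -0.05 with the fat cell list, and neither relation passed. Lpl (r = 0.23), Cd36 (r = 0.21) and Cpt1a (r = 0.25) had weak positive relations to the fat cell list, and Cpt1b had a weak negative one (r = -0.14, rho = -0.13, permutation p = 0.00233). Ppard and Ppara did not pass.

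**Figure D5:**
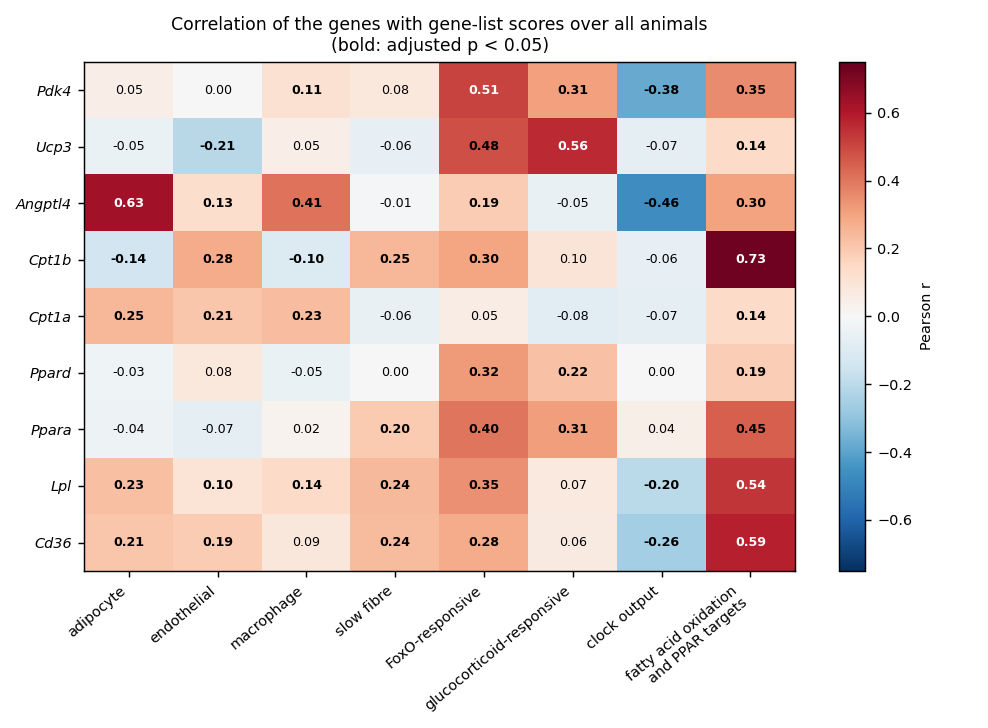
Pearson r between each of the 9 genes (rows) and the mean standardised level of 8 gene lists (columns) over all animals, centred within sex-by-generation groups, bold where the adjusted p was under the threshold. Angptl4 stands out at 0.63 for fat cell markers and -0.46 for clock output, Ucp3 at 0.56 for glucocorticoid-responsive genes and Cpt1b at 0.73 for fatty acid oxidation.

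Searched against all genes by the same measure over all animals, the genes most like each member differed from member to member. Next to Ucp3, Pdk4 was most like Pank1 (r = 0.67), which makes coenzyme A, and Fbxo32 (r = 0.60), a ubiquitin ligase of muscle wasting, and least like Mrtfa (r = -0.54). For Ucp3 the list continued with Foxo1 (r = 0.55), a transcription factor restrained by insulin, and Zbtb16 (r = 0.55), and ended with the taurine transporter Slc6a6 (r = -0.58). Angptl4 was most like Lipe (r = 0.71) and Pck1 (r = 0.65), both on the fat cell list, and Fabp4 (r = 0.64), the fatty acid binding protein of fat cells, and least like the clock repressor Nr1d2 (r = -0.46), which is on the clock output list. Cpt1b was most like the mitochondrial enzymes Acadvl (r = 0.74), Ogdh (r = 0.67) and Etfb (r = 0.67) and least like Serp1 (r = -0.60).

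After Angptl4 and Pdk4, Cpt1a was most like Tesmin (r = 0.45), which like Cpt1a lies on chromosome 19, and least like Glt28d2 (r = -0.34). Ppard was most like Atg9a (r = 0.65), Bag6 (r = 0.63) and Apba3 (r = 0.62), and least like Rasa1 (r = -0.59). After Lpl, Ppara was most like Klf15 (r = 0.48), which is on the FoxO-responsive list, and Ercc5 (r = 0.46), and least like Cxxc5 (r = -0.48). Beside Cd36, Lpl was most like Bnip3 (r = 0.63) and Hadhb (r = 0.59) and least like Nfic (r = -0.59). Cd36 was most like Adgrl4 (r = 0.69), a receptor of endothelial cells, then Lpl and Acsl1 (r = 0.65), and least like Pvalb (r = -0.64), the calcium buffer of fast fibres.

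Pathway genes around the 9 were counted in the same sex comparison. With 24.4% of all genes higher and 30.6% lower in males, most lists of this size hold genes of both kinds, so the counts that follow describe the named genes and are no result about a list. Of 25 fatty acid oxidation and PPAR target genes, 15 were higher and 6 lower in males, with a median log2 difference of 0.07 against -0.01 over all genes. Fabp3, the fatty acid binding protein of muscle, rose by 0.22 (SE 0.04, edgeR adjusted p = 5.88e-06) and Acadl by 0.15, while the peroxisomal enzyme Ehhadh was lower, at -0.24 (SE 0.05, edgeR adjusted p = 1.21e-05). Among 13 partners of the PPARs, 6 were higher and 4 lower. The coactivator Ppargc1a was higher in males, by 0.23 (SE 0.06, edgeR adjusted p = 0.000653), its relative Ppargc1b lower, at -0.27, Ncoa1 higher, by 0.19, and Pparg lower, at -0.15.

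Around Pdk4, 8 of 13 genes of the pyruvate dehydrogenase switch were higher in males and 2 lower. The phosphatase Pdp1, which undoes the action of the kinases, was higher by 0.31 (SE 0.04, edgeR adjusted p = 4e-16), its relative Pdp2 lower at -0.39, the pyruvate carrier Mpc1 higher by 0.16 and the kinase Pdk1 lower at -0.12. Around Lpl and Cd36, 5 of 13 genes of capillary lipolysis and uptake were higher and 7 lower. Vldlr was at 207.3 ± 54.4 CPM (SD) in females and 309.3 ± 90.4 CPM (SD) in males, a log2 difference of 0.58 (SE 0.04, edgeR adjusted p = 1.16e-43). Cav1 was higher by 0.13, Angptl2 lower at -0.48 and Angptl8, at only 0.0965 CPM in females and 0.0707 in males on average, lower at -0.42.

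Around the Cpt1 enzymes, 3 of 10 genes that control malonyl-CoA, the inhibitor of Cpt1, were higher and 3 lower. Acaca, which makes malonyl-CoA, was lower in males at -0.58 (SE 0.05, edgeR adjusted p = 2.85e-25), and the kinase subunit Prkag3 was higher by 0.52, Prkab2 by 0.10, with Prkag1 lower at -0.12. Among 4 carriers related to Ucp3, Slc25a5 and Slc25a4 were higher by 0.08 and 0.07, Ucp2 was lower at -0.23, and Ucp1, the uncoupling protein of brown fat and also one of the brown fat cell markers, was lower at -3.79 (SE 0.38, edgeR adjusted p = 8.87e-20), with 9.96 ± 30.5 CPM (SD) in females and 1.104 ± 6.76 CPM (SD) in males.

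Of 12 FoxO-responsive genes 3 were higher and 8 lower in males, with Irs2 (0.54) and Eif4ebp1 (0.27) the most raised and Sesn1 (-1.01) and Klf15 (-0.56) the most lowered. The glucocorticoid-responsive list had 1 of 10 higher, Sgk1 (0.28), and 7 lower, Mt2 (-0.66) and Mt1 (-0.42) the most. Clock output genes were mixed, with 3 of 8 higher, led by Hlf (0.46) and Per2 (0.26), and 2 lower, Ciart (-0.35) and Per3 (-0.13).

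Some genes of these lists also differed between generations, and they are named here after their values were seen. Over all genes 7.56% differed and 2.4% did so with their highest level in generation 17, and the list counts below were not tested against these shares. Of 12 FoxO-responsive genes 6 differed between generations, and 4 of them, Foxo1 (range 0.58, edgeR adjusted p = 2.48e-09), Trim63 (0.49), Fbxo32 (0.27) and Foxo3 (0.21), were highest in generation 17, while Irs2 (0.63, edgeR adjusted p = 7.64e-07) was lowest there. On the glucocorticoid-responsive list Fkbp5 (0.50) and Zbtb16 (0.43) were highest in generation 17 and Errfi1 (0.62) was lowest. Of the 25 oxidation and target genes 3 differed, a share near that of all genes, all highest in generation 17, among them Acot2 (0.24) and Slc22a5 (0.12). Among the 13 PPAR partners Lpin1 (0.29) was highest and Ppargc1b (0.24) lowest in generation 17, and Ppargc1a (0.58, edgeR adjusted p = 6.9e-08) was highest in generation 18. Of the 8 clock output genes 1 differed, again near the share of all genes, namely Ciart (0.58), which was lowest in generation 17. None of the 13 genes of the pyruvate dehydrogenase switch, the 10 malonyl-CoA genes and the 4 carriers passed by edgeR. Neither did any slow fibre, fast fibre or general muscle marker, while 4 of 8 macrophage, 4 of 5 erythroid, 2 of 8 endothelial and 1 of 4 brown fat cell markers did.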

How the data were processed

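RNA-seq of polyA RNA was measured in 474 skeletal muscle samples (gastrocnemius), 1 library per animal. Per the study's methods, both read ends were aligned as single reads to a transcriptome of the 8 founder strains and counted with EMASE in GBRS on build GRCm38; versions are not given in the sources used here. The authors deposited expected counts per gene, which need not be whole numbers, and DESeq2 variance-stabilised scores (VST), which ran from 5.24 to 22.9. Reads that fit several genes are shared out by such counting, and it is not stated to use strand, so Ucp3 cannot be told apart from its antisense neighbour Gm10603. Column names were taken as right where their order departed from the sample numbers.

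Counts were rounded and scaled by TMM (factors 0.871 to 1.29), and 1789 of 20612 genes with low counts (minimum 10) were removed. Sex, generation, interaction and library block were tested with the quasi-likelihood test of edgeR 4.0.16 in R 4.3.3, with Benjamini-Hochberg adjustment over all 18823 genes and a threshold of 0.05. A range for generation or block is the highest minus the lowest fitted log2 level, and the SE of a sex difference is its size over the square root of F. Alternatives were limma 3.58.1, DESeq2 1.42.0, other scalings and filters, and subsets. The edgeR test of sex was tried on simulated counts with the same variability for every gene. Correlations used numpy 2.4.6 and scipy 1.17.1.

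Groups came from the sample titles. Nothing in the labels ties animals to litters, cages or harvest days. The members and gene lists were chosen with earlier results of these data known. Named list genes are up to 2 with the largest positive and 2 with the largest negative sex difference past the threshold, and for each member the 3 genes with the highest r and the 1 with the lowest that do not overlap it. A few list genes that this rule would name are not reported here.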

Additional observations from a re-analysis of the deposited data

How the results depend on the processing

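No paired analysis was possible because each animal gave 1 library and belongs to 1 sex and 1 generation. Of the 9 genes, 5 differed with sex in the whole data set, against 3, 2, 1, 1 and 2 within library blocks 1 to 5 and 2, 3, 1, 3 and 1 within generations 17, 18, 19, 21 and 23. The generation count of 4 became 0, 2, 0, 0 and 1 within the blocks and 0 without generation 17. The 29 pairs that passed became 17, 18, 18 and 10 in blocks 1 to 4 and 19 in males alone, and the 45 list relations became 21, 24, 29 and 27 in blocks 1, 2, 4 and 5. Counts of pairs and list relations in the other subsets are not given. The share of all genes reaching the smallest passing r was taken over all animals only. All of these subsets hold fewer animals. Over all genes, sex calls fell from 10362 to between 3698 and 5381 within generations and blocks, generation calls from 1423 to 2.85% and 2.81% of genes tested within females and males, to 56 at the fewest within a block and to 270 without generation 17, and interaction calls from 100 to 47 with a stricter filter and 0 by limma.

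Named here are the sign changes of values past the threshold in at least 1 of both fits. Beside these, counted over all alternatives, 17 values of sex differences, 15 of pairs and 63 of list relations that passed in neither fit also had the other sign. Sex differences changed sign for Angptl4 (0.31) and Lpl (0.11) with the marker scores, Ppard (0.036, block 1), Ucp3 (-0.0096, block 2) and Ppara (0.033, generation 21). Pairs did so for Cpt1b with Lpl (-0.160) and Cd36 (-0.157) in block 1, Ucp3 with Cpt1b (-0.109) and Angptl4 with Ppard (-0.297) in block 2, Ucp3 with Cd36 (-0.108) in block 4, and Ppard with Cd36 in blocks 3 (0.051) and 5 (0.080). List relations did so for Lpl with endothelial markers in males (-0.061) and block 1 (-0.132), Cd36 with endothelial markers in block 1 (-0.051), and fatty acid oxidation with Ucp3 in block 2 (-0.065) and Ppard in blocks 2 (-0.014) and 4 (-0.00398). The cause was not tested. The generation contrasts between neighbours and without each generation were chosen after seeing the data.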
